A study of Mus musculus with 52 samples.

Results

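The accessibility of the promoters of canonical PRC1 genes was examined in mouse embryonic stem cells (mESCs) before and after KDM2 proteins were removed. The genes were Cbx2, Cbx6, Cbx7, Cbx8, Pcgf2, Bmi1, Phc1, Phc2 and Phc3, and their promoters were the rows whose RefSeq identifier mapped to these 9 symbols among the 20633 promoters of the series. This gave 10 promoters for 8 of the 9 genes, because Phc2 had 3 separate start sites. Cbx6 had no row under its own identifier. A row filed under Npcd, a read-through transcript that begins at the same place, was centred on the Cbx6 start site. It is described here as the Cbx6 start site and is kept out of every count of members, so 11 promoters are described in all.

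Canonical PRC1 is a Polycomb complex built on the ubiquitin ligases RING1 and RNF2, which modify histone H2A. A CBX protein reads the trimethylated histone H3 mark placed by PRC2, a PCGF protein (PCGF2 or BMI1) pairs with the ligase, and a PHC protein joins complexes to each other through its SAM domain. KDM2B belongs to a different, variant PRC1 with PCGF1 and brings it to CpG islands through a ZF-CxxC domain, while KDM2A and KDM2B both hold a JmjC domain that demethylates histone H3. Promoters of most genes for canonical PRC1 subunits are themselves CpG islands.

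Calibrated ATAC-seq (cATAC-seq) counts Tn5 transposition in open chromatin, with Drosophila SG4 cells added as a spike-in so that libraries can be set on a common scale. It was performed in 26 libraries of 4 conditional mESC lines, each with a tamoxifen-inducible CreERT2 at Rosa26, before and after 800 nM 4-hydroxytamoxifen for 96 hours. In Kdm2a/b-JmjC fl/fl cells tamoxifen excised exons for the JmjC domain of both genes and left the short forms, which start downstream and keep the ZF-CxxC domain. In the other lines it excised the exon for the ZF-CxxC domain, of Kdm2b in Kdm2b-CXXC fl/fl cells, of Kdm2a in Kdm2a-CXXC fl/fl cells, and of both genes in Kdm2a/b-CXXC fl/fl cells. Untreated cells of each line were the controls and carried the same floxed alleles and CreERT2, so the action of tamoxifen or of Cre itself cannot be told apart from that of the deletion. The Kdm2a/b-JmjC line came from targeted mice, and loxP sites were inserted into Kdm2a by CRISPR in the Kdm2a-CXXC and Kdm2a/b-CXXC lines, which each descend from a single targeted clone. The Kdm2a/b-CXXC line was made from Kdm2b-CXXC cells, and the Kdm2a-CXXC line from cells with CreERT2 at Rosa26. There were 3 untreated and 3 tamoxifen libraries per line, except 4 and 4 in Kdm2a/b-CXXC. The study's methods call the replicates biological, without saying how the cultures were kept apart, and p-values measure the spread between these libraries. Cells were measured in bulk, and fewer cells with an open promoter cannot be told apart from less accessible chromatin in each cell.

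Libraries held 1488370 to 3025358 promoter reads, and each promoter is an interval of 400 bp, 200 bp on either side of a start site. The members are not Kdm2a or Kdm2b, so their reads do not check the deletions. Promoters of pluripotency genes were accessible in part: Zfp42, Sox2, Tfcp2l1 and Klf4 had median levels at the 90.4th, 88.6th, 86.4th and 83.9th percentile of all promoters, Pou5f1 and Tdgf1 at the 48.3rd and 48.0th. Nanog was at the 55.8th, and the start sites of Esrrb were at the 41.2nd and 18.4th. The median was at the 55.8th percentile over the 9 pluripotency promoters, the 42.2nd over 6 promoters of primitive endoderm genes, the 25.2nd over 6 of fibroblast genes and the 7.78th over 459 olfactory receptor promoters. None of the defining promoters was at 0 in every library. The summed pluripotency signal was 518 to 573 reads per 1000000 promoter reads (RPM) in untreated and 552 to 654 in tamoxifen-treated Kdm2a/b-JmjC libraries, and 58.4 to 65.1 against 67.0 to 78.7 for fibroblast genes in Kdm2a-CXXC. In Kdm2b-CXXC the fibroblast signal was 71.4 to 74.1 in untreated and 75.9 to 95.7 in treated libraries. Some sums moved down instead, with overlap. In Kdm2b-CXXC pluripotency genes had 566 to 586 untreated and 520 to 572 treated. In Kdm2a/b-CXXC primitive endoderm genes had 153 to 183 untreated and 135 to 163 treated. Among untreated libraries the pluripotency sum was 657 to 720 in Kdm2a-CXXC and at most 591 in the other lines. The part of these levels in the results was not tested.

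The sequences of 5 promoters are shown because they hold the extremes of the set, the most accessible promoter (Cbx8), its neighbour on chromosome 11 (Cbx2), and the 3 start sites of Phc2, of which the middle one was nearly closed. Each runs from 170 bases before the centre of the interval to 30 bases from it on the gene's strand, 5′ to 3′, read from mouse build mm10 (GRCm38.p6), with CpG dinucleotides in capitals. The windows are chr11:119040884-119041083 on the minus strand (Cbx8), chr11:119022859-119023058 on the plus strand (Cbx2) and, on the plus strand, chr4:128654532-128654731, chr4:128688568-128688767 and chr4:128727401-128727600 for Phc2.
Cbx8: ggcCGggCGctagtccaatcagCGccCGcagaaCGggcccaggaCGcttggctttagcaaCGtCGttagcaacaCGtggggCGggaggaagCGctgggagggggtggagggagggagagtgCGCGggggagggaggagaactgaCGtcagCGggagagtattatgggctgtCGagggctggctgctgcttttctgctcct
Cbx2: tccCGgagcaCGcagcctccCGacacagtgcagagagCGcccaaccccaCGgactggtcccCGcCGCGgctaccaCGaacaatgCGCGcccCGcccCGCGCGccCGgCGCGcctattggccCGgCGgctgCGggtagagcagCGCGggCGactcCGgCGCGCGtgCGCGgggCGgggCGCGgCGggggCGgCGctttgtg
Phc2 upstream: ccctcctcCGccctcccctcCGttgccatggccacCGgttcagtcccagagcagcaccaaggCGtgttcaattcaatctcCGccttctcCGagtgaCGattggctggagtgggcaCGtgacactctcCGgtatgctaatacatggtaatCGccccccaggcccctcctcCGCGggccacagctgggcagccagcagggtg
Phc2 middle: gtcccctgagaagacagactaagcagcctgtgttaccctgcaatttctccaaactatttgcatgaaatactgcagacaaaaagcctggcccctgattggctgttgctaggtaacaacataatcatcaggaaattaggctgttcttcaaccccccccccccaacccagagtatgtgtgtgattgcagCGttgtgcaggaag
Phc2 downstream: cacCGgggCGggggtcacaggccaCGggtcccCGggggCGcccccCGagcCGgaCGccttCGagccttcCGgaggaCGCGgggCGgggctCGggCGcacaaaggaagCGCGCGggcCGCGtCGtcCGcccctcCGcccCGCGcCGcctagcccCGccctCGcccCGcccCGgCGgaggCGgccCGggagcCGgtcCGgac
The windows held 16 CpG in Cbx8, 36 in Cbx2, and 12, 1 and 35 in the upstream, middle and downstream windows of Phc2.

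Of the 11 promoters, 10 were CpG-rich, here at least 50% G+C with 0.6 or more of the CpG that their base composition predicts, compared with 54.6% of all promoters. The exception was the middle promoter of Phc2 (chr4:128688538-128688937), with 6 CpG, 48.2% G+C and 0.258 of the predicted CpG. Over the whole 400 bp the other promoters held 25 to 67 CpG, against a median of 24 over all promoters. The downstream promoter of Phc2 (chr4:128727371-128727770) held 67 CpG and Cbx2 (chr11:119022829-119023228) held 64, followed by Phc1 with 59 (chr6:122339458-122339857), Cbx7 with 52 (chr15:79932447-79932846) and the Cbx6 start site with 48 (chr15:79834134-79834533). The upstream promoter of Phc2 (chr4:128654502-128654901) held 45, Bmi1 (chr2:18676818-18677217) 40, Cbx8 (chr11:119040714-119041113) 36, Pcgf2 (chr11:97699185-97699584) 33 and Phc3 (chr3:30969216-30969615) 25. All intervals held the start of a first exon. Those of Cbx2, Cbx6, Cbx7, Cbx8 and Phc3 also reached 14 to 72 bases of coding sequence, and the row of Pcgf2 sat on an alternative start site of that gene.

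Motifs were searched by their letters on both strands of the 400 bp. The GC box GGGCGG was in 10 of the 11, all but the middle promoter of Phc2, and in 56.3% of all and 82.7% of CpG-rich promoters. CCAAT was in 6, against 40% of all and 37.8% of CpG-rich promoters, and the TATA box TATAAA in 0, against 10.4% and 4.54%. The E-box CACGTG was in 4 (Cbx6, Cbx8, the upstream promoter of Phc2 and Phc3), against 9.54% of all and 11.9% of CpG-rich promoters. The letters GCGCATGC, the core bound by NRF1, occurred in Phc3 alone among the 11. The 2 matches there were on opposite strands of the same stretch, GCGCATGCGC, and overlapped, so they are a single site. GCGCATGC was in 3.93% of all and 6.1% of CpG-rich promoters. AAGATGG (YY1) was in Cbx6, Pcgf2 and Phc3, against 8.71% of all and 9.31% of CpG-rich promoters. CCGGAAG (ETS) was in Cbx7 and the downstream promoter of Phc2, against 14.1% and 21.7%. No mismatch was allowed. None of these motifs contains another, although CCGGAAG and AAGATGG can share their AAG.

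**Figure D1:**
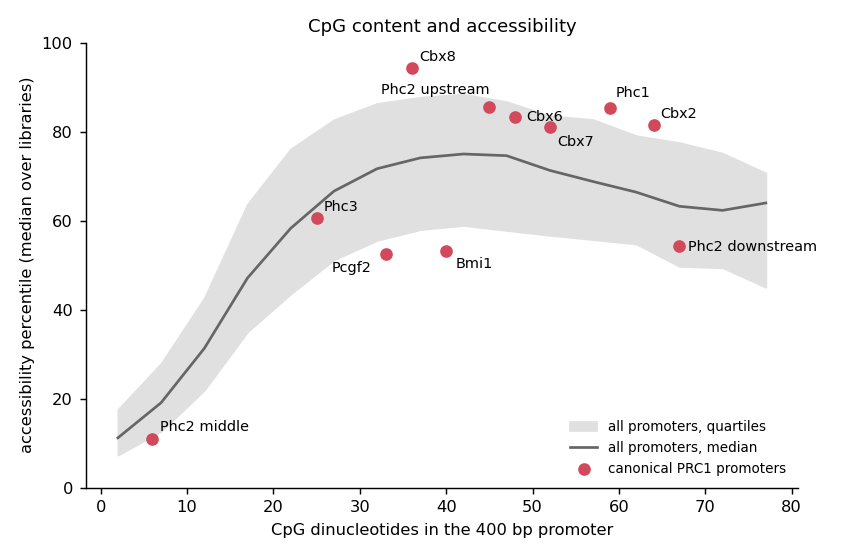
CpG count per 400 bp promoter (x axis, bins of 5 CpG) against the percentile of its accessibility among all promoters (y axis, median over 26 libraries), with the median and quartiles of all promoters as a line and band and the 11 canonical PRC1 promoters as points. Cbx8 lies at the 94.2nd percentile with 36 CpG, Bmi1 and Pcgf2 at the 53.1st and 52.6th with 40 and 33 CpG, and the middle promoter of Phc2 at the 11.1th with 6 CpG.

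The members fell into a more accessible set, a set of moderate accessibility and 1 nearly closed promoter. Levels are given in RPM, a scale that can be compared between libraries and, since every interval has the same length, between promoters. The median over all promoters was 34.7 to 41.0 across the libraries, over CpG-rich promoters 67.0 to 70.6 and over the others 6.28 to 8.47. Cbx8, Cbx7, Phc1, the upstream promoter of Phc2, Cbx2 and the Cbx6 start site had median percentiles of 81.1 to 94.2. Phc3, Bmi1, Pcgf2 and the downstream promoter of Phc2 had 52.6 to 60.5.

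Among the CBX genes, whose proteins read methylated histone H3 with a chromodomain, Cbx8 had the highest mean, 126 ± 13.9 RPM (SD, n = 26). Its level ran from 92.4 to 147, and it was the most accessible of the 11 promoters in 16 of 26 libraries. Cbx7, which encodes the main CBX protein of canonical PRC1 in mESCs, had 102 ± 31.5 and ran from 64.7 to 157, the widest relative spread after the middle promoter of Phc2. The Cbx6 start site had 99.3 ± 24.5 (66.1 to 142). Cbx2, whose protein compacts nucleosome arrays, had 89.6 ± 9.24 (74.8 to 106). Cbx2 and Cbx8 lie next to each other on chromosome 11, and Cbx8 exceeded Cbx2 in 26 of 26 libraries, by a median ratio of 1.38 (1.07 to 1.84).

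The paralogues Pcgf2 and Bmi1, which take the same place in the complex, were nearly equal. Bmi1 had 44.1 ± 6.33 RPM (32.4 to 56.7) and Pcgf2 42.7 ± 7.83 (30.4 to 61.7), and Bmi1 was higher in 14 of 26 libraries. Both were low for their CpG content: Bmi1 stood at the 18.4th percentile of the 1643 promoters within 2 CpG of it and Pcgf2 at the 20.3rd of 1956, whereas Cbx8 stood at the 88.7th of 1824. Over 20630 promoters the Spearman rho of level and CpG count was 0.751, a description across promoters that share libraries and base composition.

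Among the PHC genes, Phc1 had 101 ± 23.6 RPM (65.6 to 146) and Phc3 54.2 ± 8.31 (39.3 to 72.6), and Phc1 was higher in 26 of 26 libraries with a median ratio of 1.88. Phc2 differed by start site. The upstream promoter had 97.4 ± 12.9 (66.1 to 118), the middle 3.61 ± 1.96 (0.545 to 7.56) and the downstream 42.8 ± 8.87 (22.0 to 59.8). Upstream exceeded downstream in 26 of 26 libraries by a median of 2.14 (1.73 to 4.49). The downstream promoter had more CpG, in a range where levels no longer rose with CpG count. Over all promoters the median percentile was 74.6 at 45 to 49 CpG and 63.2 at 65 to 69 CpG. The middle promoter held 1 to 22 reads per library, with a median of 8, and was the least accessible of the 11 in every library. It did not pass the filter on low reads in any line, so 9 of the 10 member promoters were tested. In the order of mean levels the ranges of neighbours overlapped, except that Cbx2 lay above Phc3 and Pcgf2 above the middle promoter of Phc2 in all 26 libraries.

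**Figure D2:**
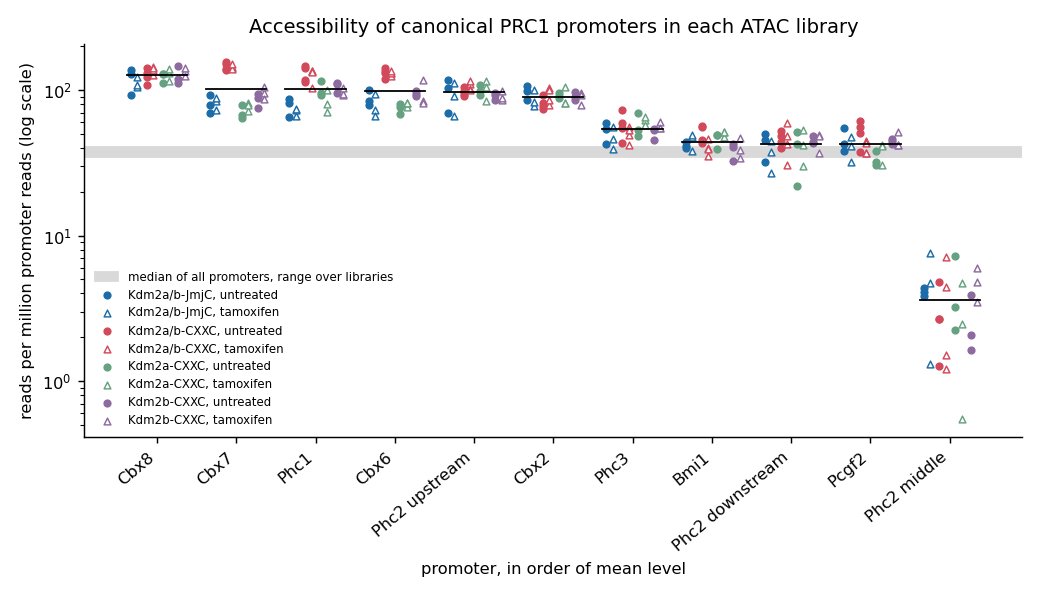
Accessibility of the 11 canonical PRC1 promoters in RPM on a log scale, 1 point per library (filled for untreated, open for tamoxifen, coloured by line), with a bar at each mean and a grey band for the median of all promoters. Cbx8 is highest on average (126), a gap separates Cbx2 (89.6) from Phc3 (54.2), and the middle promoter of Phc2 (3.61) lies below the band in all 26 libraries.

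The effect of removing KDM2 proteins was asked within each line on the spike-in scale, where a value is the mouse read count over the size factor that the spike-in gave that library (calibrated reads). A promoter was called at a Benjamini-Hochberg adjusted p under 0.05 (limma, two-sided, over all promoters tested in the line) and a change of over 1.4-fold. By this rule 0 of the 9 tested members were called in each of the 4 lines, and the same held for the Cbx6 start site. In Kdm2a/b-JmjC 0.0757% of 17174 promoters were called, all lower, and in the other lines 0.0% (Kdm2a/b-CXXC, of 16413), 0.0% (Kdm2a-CXXC, of 17727) and 0.0% (Kdm2b-CXXC, of 17930). At an unadjusted p under 0.05 there were 5 members in the JmjC line (beside 20.6% of all promoters), 1 in Kdm2a-CXXC (8.39%), 0 in Kdm2b-CXXC (0.669%) and 0 in the double CXXC line (4.65%). By edgeR's quasi-likelihood test 0 members were called in any line, and by DESeq2 0 in the 3 CXXC lines. In the JmjC line DESeq2 gave the members no adjusted p, and 2 of 9 had an unadjusted p under 0.05 by it.

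In Kdm2a/b-JmjC all 9 tested members had lower means after tamoxifen, with log2 fold changes from -0.44 to -0.11 and a median of -0.33, beside a median of -0.21 over all promoters. None passed the adjusted threshold (smallest adjusted p by limma 0.157, for Cbx2). Calibrated totals over all promoters were lower in the treated libraries as well, 1.49 to 1.70 M against 1.80 to 1.90 M (M, 1000000 calibrated reads). When libraries were scaled by TMM on their own reads, which sets the median of all promoters near 0, the members' median was -0.13, with 7 of 9 below 0 and 0 at an unadjusted p under 0.05.

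Cbx2 had 177, 201 and 155 calibrated reads in the untreated Kdm2a/b-JmjC libraries and 132, 149 and 130 after tamoxifen. The highest treated library was below the lowest untreated one. The log2 fold change was -0.37 (SE 0.15, adjusted p = 0.157 by limma), on means of 178 ± 23.2 and 137 ± 10.2 (SD, n = 3 each). Cbx8 had 233, 261 and 166 before and 179, 184 and 170 after. The groups overlapped, because untreated replicate 3 was below all treated libraries, and the log2 fold change was -0.28 (SE 0.14, adjusted p = 0.234 by limma).

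The Cbx6 start site had 143, 189 and 152 calibrated reads before and 159, 108 and 103 after, so that the first treated library lay within the untreated range. Its log2 fold change was -0.40 (SE 0.16, adjusted p = 0.144 by limma). Without that library it was -0.60 with an adjusted p of 0.0339, past the threshold, and over the single-library omissions in this line its log2 fold change ran from -0.60 to -0.28. For Cbx7 the change was -0.19 (SE 0.16), on 149 ± 26 and 130 ± 18.8 reads, with overlapping groups.

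Phc1 had 119, 154 and 157 calibrated reads before and 113, 109 and 116 after tamoxifen. It was the second member whose groups did not overlap, with a log2 fold change of -0.33 (SE 0.16, adjusted p = 0.229 by limma). The upstream promoter of Phc2 had 186, 223 and 126 before and 155, 166 and 103 after, with overlap and a change of -0.32 (SE 0.16, adjusted p = 0.222 by limma). The downstream promoter had 90.3, 86.1 and 57.7 before and 75.8, 55.6 and 42.0 after, also with overlap, and a change of -0.44 (SE 0.22, adjusted p = 0.228 by limma). In both of these promoters replicate 3 was the lowest library of its group.

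The remaining members of this line were Phc3 at -0.35 (SE 0.20), Pcgf2 at -0.37 (SE 0.21) and Bmi1 at -0.11 (SE 0.20), all with overlapping groups. Bmi1 had 76.5 ± 4.52 and 70.8 ± 5.81 reads, a fold of 0.925 with a 95% interval of 0.701 to 1.22. Without overlap and lower were 2 of 9 members, beside 23.2% of all promoters, and higher without overlap were 0, beside 0.908%. The count of members at an unadjusted p under 0.05 rested on single libraries: leaving out untreated replicate 2 or tamoxifen replicate 3 brought it to 0, untreated replicate 1 to 2 and tamoxifen replicate 2 to 3, and it was 6 without untreated replicate 3 and 5 without tamoxifen replicate 1.

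**Figure D3:**
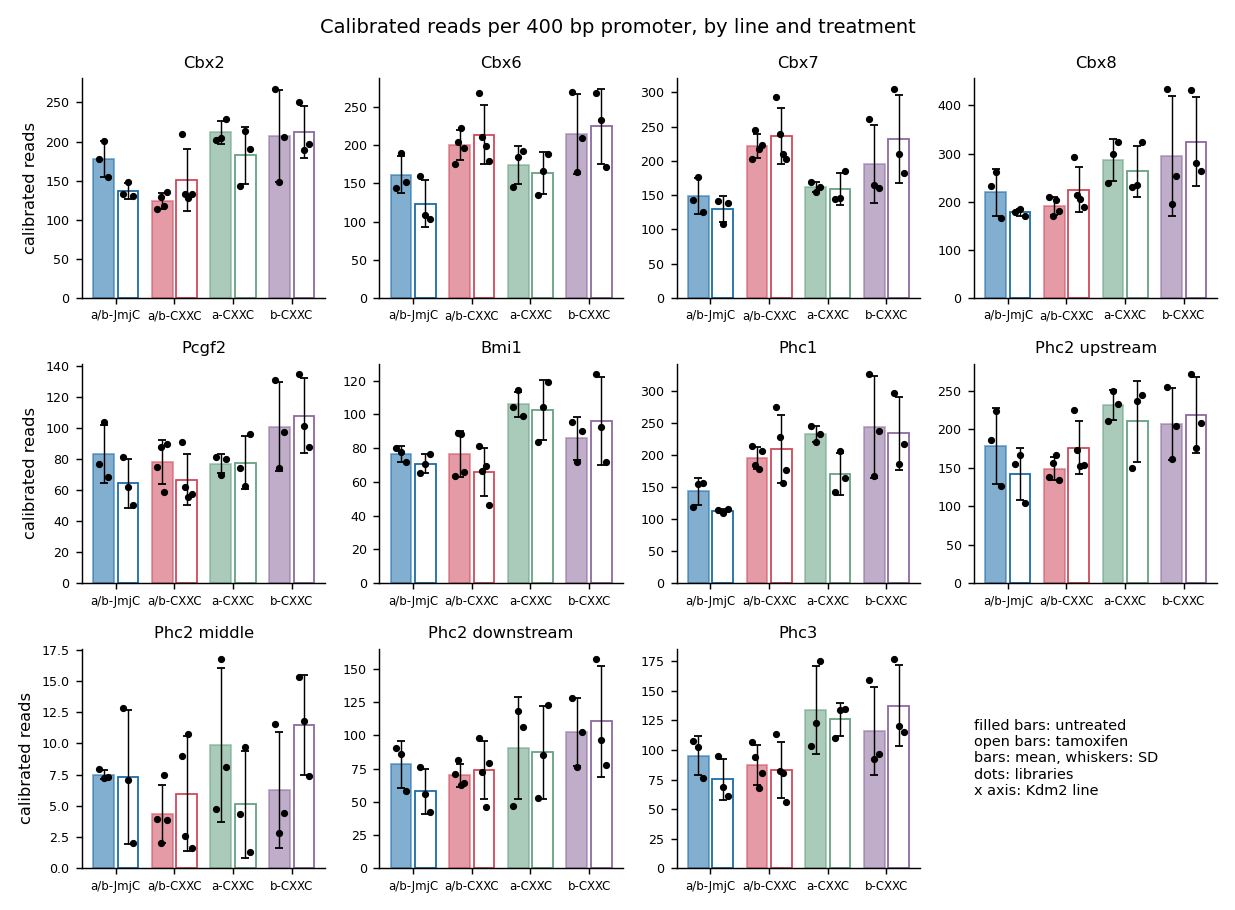
Calibrated reads of the canonical PRC1 promoters in each of the 4 lines, 1 point per library, untreated beside tamoxifen, with bars for group means (filled for untreated, open for tamoxifen) and whiskers for the SD. In Kdm2a/b-JmjC the groups of Cbx2 (178 against 137) and Phc1 (143 against 113) do not overlap, in Kdm2a-CXXC those of Phc1 (232 against 171) do not, and the members' groups overlap in Kdm2a/b-CXXC and Kdm2b-CXXC.

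In Kdm2a/b-CXXC, where both proteins lose the ZF-CxxC domain, the members had values on both sides of 0, and 0 of 9 had an unadjusted p under 0.05. Their log2 fold changes had a median of 0.063 (-0.0803 without tamoxifen replicate 1), beside 0.087 over all promoters, and 3 of 9 were below 0. The chromobox genes had 0.25 (Cbx2, SE 0.19), 0.22 (Cbx8, SE 0.17) and 0.077 (Cbx7, SE 0.17), and the Cbx6 start site 0.087 (SE 0.17). Cbx2 had 114, 129, 117 and 136 calibrated reads before and 209, 132, 128 and 132 after tamoxifen. A single treated library stood above the other 7, in which the groups overlapped, and without it the change of Cbx2 was 0.085. The same library, tamoxifen replicate 1, had the highest calibrated total of the line, 2.04 M beside 1.33 to 1.68 M in the other treated libraries.

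The PCGF genes had the lowest values in this line, -0.23 for Pcgf2 (SE 0.21, 78.0 ± 14.2 to 66.7 ± 16.6 reads, n = 4 each) and -0.22 for Bmi1 (SE 0.21, 76.5 ± 13.8 to 65.8 ± 14.3). Under TMM scaling they were -0.32 and -0.31, with adjusted p of 0.525 and 0.540 by limma. Phc1 had 0.063, Phc3 -0.089, and the upstream and downstream promoters of Phc2 0.23 and 0.037. The groups of all 9 members overlapped, beside 0.597% of promoters that were lower and 1.8% that were higher without overlap. The 95% intervals of these members were 0.67 to 0.84 wide on the log2 scale, so a change of -0.33, the median of the JmjC line, would not have been resolved.

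In Kdm2a-CXXC 9 of 9 tested members had negative values, with a median of -0.059 beside -0.18 over all promoters, and 8 of the 9 lay between -0.23 and -0.0059. Phc1 was the exception. It had 245, 220 and 232 calibrated reads in untreated cells and 142, 206 and 164 after tamoxifen, without overlap. Its log2 fold change was -0.46 (SE 0.19, 95% interval -0.82 to -0.09), with an unadjusted p of 0.0136 and an adjusted p of 0.581 by limma, and TMM scaling gave -0.29 with an adjusted p of 0.758. Leaving out single libraries gave -0.60 to -0.34. Lower without overlap was this 1 member of 9, beside 13.4% of all promoters, and higher were 0, beside 1.12%.

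The members' median in Kdm2a-CXXC depended on the scale and on single libraries. It was 0.11 under TMM scaling and 0.021 without tamoxifen replicate 1, and -0.28 without tamoxifen replicate 3. Cbx2 had -0.23 (SE 0.19), the upstream promoter of Phc2 -0.17 (SE 0.18) and Cbx8 -0.13 (SE 0.18). The downstream promoter of Phc2 had the widest relative spread of the tested members, 46.8, 118 and 106 reads before and 53.2, 85.1 and 123 after, with a change of -0.026 (SE 0.22).

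In Kdm2b-CXXC, where the variant PRC1 loses its CpG island targeting, 8 of 9 members had positive values, with a median of 0.11 beside 0.099 over all promoters. The members' median was -0.077 without untreated replicate 2 and -0.062 without tamoxifen replicate 1. The largest were 0.26 for Phc3 (SE 0.37, 116 ± 37.2 to 137 ± 34.3 reads, n = 3 each) and Cbx7 (0.26, SE 0.37, 195 ± 56.9 to 232 ± 64.5), and Phc1 had -0.037. Cbx8 had 435, 195 and 254 reads before and 432, 280 and 263 after, which shows the spread of this line on the spike-in scale. Its change was 0.19 (SE 0.37), and 0.083 (SE 0.098) under TMM scaling. In RPM it had 147, 112 and 120 before and 135, 141 and 125 after. All groups overlapped, beside 0.446% of promoters lower and 2.13% higher without overlap. On the spike-in scale, with libraries not paired, the 95% intervals were 1.43 to 1.45 wide. By them Cbx8 could have gone from 0.690 to 1.88 times its untreated level.

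**Figure D4:**
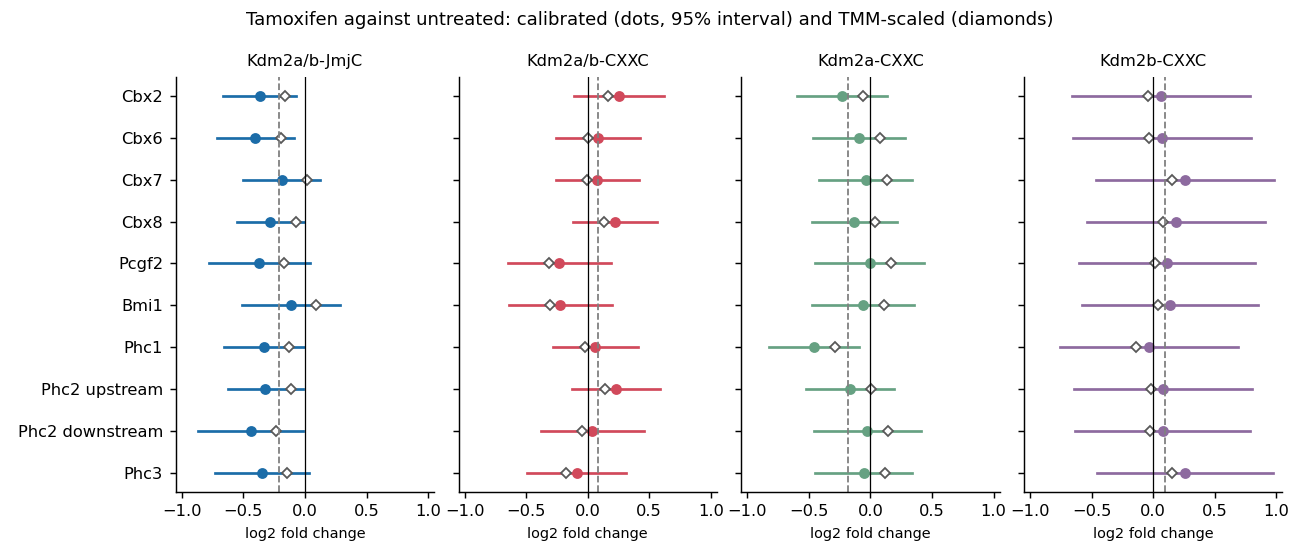
Log2 fold change (tamoxifen over untreated, x axis) of each canonical PRC1 promoter in the 4 lines, with points for limma's estimate, bars for its 95% interval, diamonds for the TMM-scaled value and a dashed line at the median over all promoters of the line (-0.21, 0.087, -0.18 and 0.099). The points of Kdm2a/b-JmjC lie below 0 and those of Kdm2b-CXXC have the widest bars.

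Whether the response differed between lines was tested by the interaction of line and tamoxifen over the 26 libraries (limma, an F test of 3 differences). Of 16030 promoters tested in all lines 0 were called (0.0%), with 580 at an unadjusted p under 0.05 and a smallest adjusted p of 0.953. The members' adjusted p ran from 0.953 to 0.959, and 0 of 9 had an unadjusted p under 0.05. With the replicate number as a block 35 promoters were called, 0 of them members. Then 17.5% of promoters and 2 of 9 members had an unadjusted p under 0.05 by limma. These members were Cbx2 (unadjusted p = 0.0201, adjusted p = 0.216 by limma) and Cbx8 (0.0406 and 0.265). Phc1 had -0.46 in Kdm2a-CXXC, -0.33 in the JmjC line, -0.037 in Kdm2b-CXXC and 0.063 in the double CXXC line. These values were not shown to differ (unadjusted p = 0.274 and adjusted p = 0.953 by limma, 0.0547 and 0.291 with the block).

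The partners of these subunits gave few low p-values outside the JmjC line, and 0 were called in any line. Of the ligases and further canonical subunits (Ring1, Rnf2, Scmh1 and Scml2), 3 of 4 in the JmjC line had an unadjusted p under 0.05, all lower, with a median of -0.38, beside 20.6% and a median of -0.21 over all promoters. Scml2, for a protein with MBT repeats, had -0.77 (SE 0.24, adjusted p = 0.0821 by limma), Ring1 -0.40 (SE 0.20) and Scmh1 -0.37 (SE 0.18), and Rnf2, the main ligase gene of mESCs, had -0.23 (SE 0.13, unadjusted p = 0.0748, adjusted p = 0.289 by limma). Under TMM scaling the median of the 4 was -0.18. Ring1 was the only one of them at an unadjusted p under 0.05 in another line, with -0.48 in Kdm2a-CXXC (SE 0.20, adjusted p = 0.581 by limma).

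Of the variant PRC1 genes, 6 of 20 tested promoters in the JmjC line were at an unadjusted p under 0.05, all lower, with a median of -0.20, beside 20.6% and -0.21 over all promoters. The 2 start sites of Fbrsl1 had -0.79 and -0.32, 1 of Bcor -0.67, 1 of Kdm2b -0.33, and those of Mga and Dcaf7 -0.31 and -0.29. Their smallest adjusted p was 0.0610 by limma, for Fbrsl1. Of the PRC2 genes 1 of 12 in that line had such a p (Phf1, a Tudor-domain protein of PRC2, with -0.36), and 1 of 12 in Kdm2a/b-CXXC (Phf19, its paralogue, with -0.55). In Kdm2b-CXXC 0 of 4, 0 of 21 and 0 of 12 promoters of the 3 lists had an unadjusted p under 0.05.

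Cbx7, Cbx6 and Phc1 stood at different levels in different lines. These differences were seen in the values first and are given with no test. In RPM Cbx7 had 138 to 157 in the 8 Kdm2a/b-CXXC libraries, with a median of 143, and 64.7 to 106 in the 18 libraries of the other lines, with a median of 80.7. The Cbx6 start site had 120 to 142 (median 132) against 66.1 to 118 (median 81.5). For both, all 8 libraries of the line lay above all 18 others, as they did at 103 of 16030 promoters (0.643%), and untreated and treated libraries shared it. The mean log2 difference of the line from the others was 0.82 for Cbx7 and 0.63 for the Cbx6 start site.

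Cbx6 and Cbx7 lie 98.3 kb apart on chromosome 15, and their neighbours shared the difference. Over chr15:79742337-80015008, a span of 273 kb, 9 tested promoters in a row (Sun2, Gm16576, Dnal4, Nptxr, Cbx6, Apobec3, D730005E14Rik, Cbx7 and Pdgfb) had log2 differences of 0.53 to 0.82 in Kdm2a/b-CXXC, with a median of 0.63 or 1.54-fold. The next promoter on one side, Gtpbp1, had -0.084 and that on the other, Rpl3, 0.15. A run was taken as promoters in order that all pass 0.3 in size. In Kdm2a/b-JmjC and Kdm2a-CXXC both lay in runs below 0, where the libraries of Kdm2a/b-CXXC are among those they are compared with.

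Phc1 had 104 to 146 RPM in Kdm2a/b-CXXC (median 134), and 65.6 to 115 in the 18 other libraries (median 92.7). It lay in a run of 32 promoters on chromosome 6, from Rad52 to Necap1 (chr6:119902498-122874756, 2972 kb). Their log2 differences were 0.31 to 1.35, with a median of 0.52. Over all tested promoters of chromosome 6 but Phc1 the median in this line was 0.147, beside 0.025 over all tested promoters. In Kdm2a/b-JmjC Phc1 began a run of 6 promoters that ended at Nanog (chr6:122339458-122707688), with -0.69 to -0.37 and a median of -0.49. Copy number of these regions was not tested, and the genomic DNA libraries were not used here. Clone, line and the preparation of its libraries cannot be told apart. Kdm2b-CXXC, the parent of Kdm2a/b-CXXC, was among the other lines in these comparisons.

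**Figure D5:**
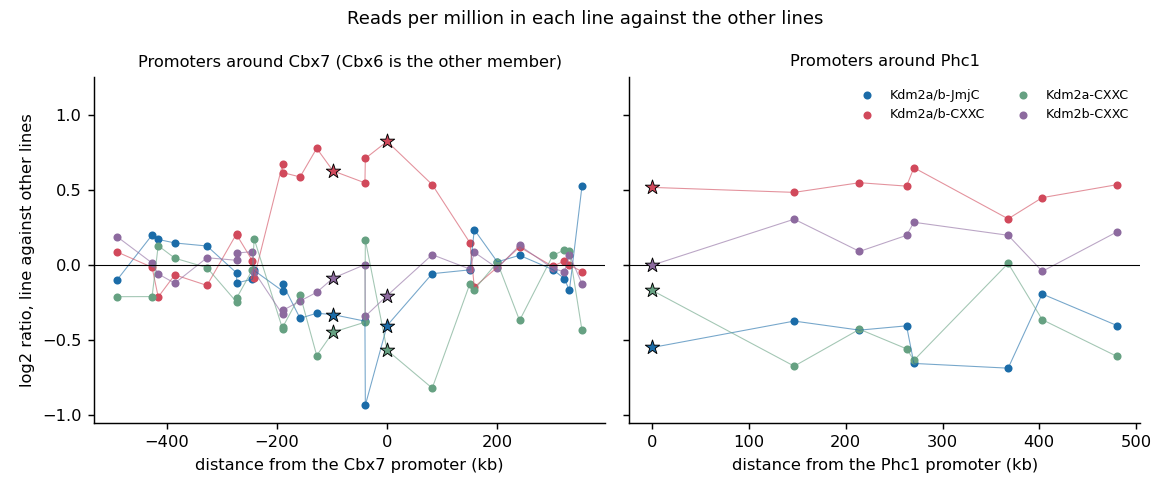
Log2 ratio of mean RPM in a line to that in the other 3 lines (y axis) for the tested promoters within 500 kb of Cbx7 and of Phc1, by distance in kb (x axis), 1 colour per line, with stars for Cbx6, Cbx7 and Phc1. Around Cbx7 the 9 promoters from Sun2 to Pdgfb lie at 0.53 to 0.82 in Kdm2a/b-CXXC, and the promoters on either side, Gtpbp1 and Rpl3, at -0.084 and 0.15.

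Levels of the 9 tested members and the Cbx6 start site were weakly related to each other across libraries. Over 26 libraries on the TMM scale, Pearson's r between their 45 pairs had a median of 0.17 (-0.30 to 0.88), and the highest was that of Cbx6 and Cbx7. The promoter of another gene most like each member among 16029 was Atp6v1e1 for Cbx7 (r = 0.90), Lsr for the Cbx6 start site (0.90) and Mtmr14 for Phc1 (0.88). Atp6v1e1 is in the run on chromosome 6 described above. Mtmr14 is on chromosome 6 as well, outside that run, and Lsr is on chromosome 7. For the other members the best r was lower: Phc2 downstream and Mfsd12 had 0.76, Pcgf2 and Kcns2 0.75, Phc3 and Mis12 0.73, Cbx8 and 2310011J03Rik 0.71, Bmi1 and Prepl 0.68, Cbx2 and Btbd10 0.68, and Phc2 upstream and Plxdc2 0.65. These are descriptions over libraries that share lines, without a test, and each is the highest of many.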

How the data were processed

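Calibrated ATAC-seq was analysed in 26 libraries of 4 mESC lines. Another 26 libraries of input genomic DNA were not used here. The authors aligned paired-end reads with Bowtie2 to a joint mm10 and dm6 genome, removed duplicates with SAMtools, and took DESeq2 size factors from Drosophila reads after correcting them by the genomic DNA (tools per the labels, with no versions given in the sources used here). The deposited values are a signal per library and promoter, namely mouse reads over that size factor. Each line had its own table, calibrated separately. The tables also hold the authors' means, log2 fold changes, standard errors and p-values for tamoxifen against untreated, which were not used.

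Reads were recovered from the steps between deposited values, and 100% came out whole within 0.02 of a read. Rows were matched to genes by RefSeq identifier against the RefSeq genes of GRCm38.p6, the assembly of mm10, and 20450 of 20633 promoters had a symbol. Promoters passing edgeR's filterByExpr were tested by limma 3.58.1 (R 4.3.3) on log2(calibrated reads + 1) with the prior variance as a trend of the mean, tamoxifen minus untreated, within a line. Fold changes on this scale understate changes at low values. On simulated tables with planted changes, 70% to 90% of 2-fold changes in the JmjC line were recovered among 17174 promoters. The simulation took the calibration of each library as exact. Errors of the spike-in scale are thus not part of this share, and it is not the power on the real libraries. Replicates differed by more than sampling noise (1.90 to 2.36 chi-square per degree of freedom). Intervals rest on the spread between libraries, and PCR copies were removed without molecular identifiers.

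The alternatives were TMM scaling, a pseudocount of 5, no filter, edgeR 4.0.16, DESeq2 1.42.0, a replicate block and leaving out single libraries. The members, the lists of related genes and the markers were chosen with earlier results of these data known. Named were all promoters of the 9 genes, the promoter most like each by Pearson's r, and members of the lists of PRC1 and PRC2 genes at an unadjusted p under 0.05 (Rnf2 and the neighbours on chromosomes 6 and 15 were named after their values were seen). A listed gene was left out of its list and is not reported here.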

Additional observations from a re-analysis of the deposited data

Results flagged for a closer look

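In a group of 4 libraries, 1 value stood far from the others by Dixon's ratio of the gap to the range: Cbx2 in Kdm2a/b-CXXC tamoxifen replicate 1, with 209 calibrated reads where the other treated libraries of that line had 128 to 132 (ratio 0.947, above Dixon's 95% critical value for 4). It was 1 of 22 such groups of the canonical PRC1 promoters, and chance flags about 1 in 20. The same library had the highest calibrated total of its line. Without it the log2 fold change of Cbx2 in that line was 0.085 in place of 0.25.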

How the results depend on the processing

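The log2 fold changes of the 9 tested members and the Cbx6 start site were fitted under 6 alternatives with all libraries, 240 values in all, of which 20 changed sign and 0 gained a call. The 10 values by DESeq2 in Kdm2a/b-JmjC came with no adjusted p and could not have gained one, so the count of members called has no DESeq2 value in that line. Of 260 values with a single library left out, 39 changed sign and 1 gained a call, Cbx6 in Kdm2a/b-JmjC. The smallest adjusted p of a member or of Cbx6 over the alternatives was 0.0339 in the JmjC line, 0.0390 in Kdm2a-CXXC (Phc1 with the replicate block, at under 1.4-fold), 0.405 in Kdm2a/b-CXXC and 0.490 in Kdm2b-CXXC. The causes of the changes were not tested. TMM scaling removes the shift shared by all promoters (-0.21, 0.087, -0.18 and 0.099 in the order of the lines in the report), so members near that shift change sign by construction. Under it the JmjC line had 0.091 for Bmi1 and 0.014 for Cbx7. In Kdm2a/b-CXXC it gave Cbx6 -0.000305, Cbx7 -0.0097, Phc1 -0.024 and Phc2 downstream -0.049. In Kdm2a-CXXC it gave Bmi1 0.11, Cbx6 0.079, Cbx7 0.13, Cbx8 0.039, Pcgf2 0.16, Phc2 upstream 0.0048, Phc2 downstream 0.14 and Phc3 0.11, and in Kdm2b-CXXC Cbx2 -0.039, Cbx6 -0.033, Phc2 upstream -0.022 and Phc2 downstream -0.026. Pcgf2 in Kdm2a-CXXC was 0.0049 by edgeR and 0.0059 by DESeq2. The members' median under TMM was -0.13 in Kdm2a/b-JmjC.

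With single libraries left out, the log2 fold changes that changed sign ran as follows. In Kdm2a/b-CXXC they were Cbx6 from -0.026 to 0.17, Cbx7 from -0.031 to 0.15, Phc1 from -0.0803 to 0.19, Phc2 downstream from -0.11 to 0.24 and Phc3 from -0.25 to 0.082. In Kdm2a-CXXC they were Bmi1 from -0.17 to 0.078, Cbx6 from -0.22 to 0.038, Cbx7 from -0.16 to 0.024, Pcgf2 from -0.17 to 0.13, Phc2 upstream from -0.29 to 0.063, Phc2 downstream from -0.44 to 0.29 and Phc3 from -0.22 to 0.16. In Kdm2b-CXXC they were Bmi1 from -0.062 to 0.33, Cbx2 from -0.15 to 0.27, Cbx6 from -0.10 to 0.25, Cbx8 from -0.068 to 0.51, Pcgf2 from -0.086 to 0.32, Phc1 from -0.28 to 0.20, Phc2 upstream from -0.088 to 0.24 and Phc2 downstream from -0.21 to 0.30. The members' median ran from -0.47 to -0.20 in Kdm2a/b-JmjC, -0.0803 to 0.19 in Kdm2a/b-CXXC, -0.28 to 0.021 in Kdm2a-CXXC and -0.077 to 0.31 in Kdm2b-CXXC.

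Promoters called in Kdm2a/b-JmjC, 13 by limma, were 0 under TMM scaling, 71 with a pseudocount of 5, 114 by edgeR and 0 to 607 with single libraries left out (607 without tamoxifen replicate 1). In Kdm2a/b-CXXC they were 17 under TMM scaling and 0 to 8 with single libraries left out, in Kdm2a-CXXC 0 to 43, and in Kdm2b-CXXC 1 under TMM scaling. Libraries of a line with the same replicate number correlated at -0.009 to 0.073 in their deviations from the group means. The numbers were therefore not taken to pair them. In Kdm2a/b-JmjC each library correlated best with its own number, which was not so in the other lines. This correlation cannot see a shift shared by all promoters of a library. Calibrated totals of replicates 1 to 3 in Kdm2b-CXXC were 2.96, 1.75 and 2.12 M untreated and 3.19, 1.98 and 2.11 M treated. Their order by replicate also matched in Kdm2a-CXXC, and not in Kdm2a/b-JmjC or Kdm2a/b-CXXC. Whether the calibration pairs libraries was not tested. With the replicate block 62 promoters were called in Kdm2a/b-JmjC, 188 in Kdm2a-CXXC, 5 in Kdm2b-CXXC and 35 in the interaction, 0 of them members. Promoters at an unadjusted p under 0.05 by limma went with it from 120 to 1785 in Kdm2b-CXXC (members from 0 to 1 of 9). In Kdm2a-CXXC they went from 1488 to 3895 (members 1 of 9 in both). Without and with it they were 3537 and 3544 in Kdm2a/b-JmjC and 764 and 733 in Kdm2a/b-CXXC. The tested member promoters held 41 to 394 reads per library, and changes under 1.4-fold lay largely within the spread between libraries. The part of read depth in that spread was not tested.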
